A study of Arabidopsis thaliana with 16 samples.

Results

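Transcripts of 10 clock genes of Arabidopsis thaliana were followed in RNA-seq libraries of whole seedlings. The genes were chosen by name, as the rows of the deposited count table for the PSEUDO-RESPONSE REGULATOR (PRR) family, the evening complex and GIGANTEA. They are PRR9 (AT2G46790), PRR7 (AT5G02810), PRR5 (AT5G24470), PRR3 (AT5G60100), TOC1 (AT5G61380), ELF3 (AT2G25930), ELF4 (AT2G40080), LUX (AT3G46640), BOA (AT5G59570) and GI (AT1G22770). All 10 were among the 33602 genes of the table and among the 20075 that passed the filter on low counts. Col-0 seedlings grew for 6 days at 22 °C on MS medium under unbroken white light, and were then given 3 h at 28 °C or kept at 22 °C. There were 4 genotypes, the triple mutant mrg1 mrg2 pif4, the double mutant mrg1 mrg2, the single mutant pif4 and WT, each with 2 libraries per temperature, which makes 8 groups and 16 libraries. MRG1 and MRG2 are a pair of chromodomain readers of histone H3 methylation, and PIF4 is the bHLH factor through which warmth speeds stem elongation. The labels name no mutant alleles and give no hour of harvest. Nothing in them says that replicate libraries are separate cultures. The p-values therefore measure the spread between libraries, pooled over the 8 groups, which may be technical. In whole seedlings, fewer cells of a type and less RNA per cell cannot be told apart.

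In the plant clock, the PRR proteins are transcriptional repressors that follow each other through the day. PRR9 and PRR7 come first, then PRR5 and PRR3, and TOC1 comes last, and they repress the morning genes CCA1 and LHY. At dusk ELF3, ELF4 and the GARP-family DNA-binding protein LUX join into the evening complex, which represses PRR9, LUX itself, GI and the growth factors PIF4 and PIF5. ELF3 is the scaffold of this complex and is known to lose function in warmth, ELF4 binds ELF3 and promotes its activity, and BOA is a close relative of LUX. GI is a large protein of the late day that stabilises the F-box protein ZTL and, with FKF1, promotes flowering. In continuous light the genes go on cycling, so a level at 1 harvest reflects the clock's phase as well as its amplitude.

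Library totals ran from 7186066 to 11363353 counts. Levels are given as normalized CPM, which is counts scaled to a common library total after TMM scaling. The member with the fewest counts, PRR9, had 32 to 102 per library, so no member was near the floor of 3 counts. MRG1 and MRG2 transcripts were lower in the libraries labelled mrg1 mrg2 and mrg1 mrg2 pif4 than in all WT and pif4 libraries. For PIF4 the libraries labelled pif4 did not pass as lower (log2 difference from WT -0.21, adjusted p = 0.319 at 28 °C and -0.18, adjusted p = 0.302 at 22 °C). In those labelled mrg1 mrg2 pif4 it was not called at 28 °C (-0.12, adjusted p = 0.444) and was called higher at 22 °C (0.28, adjusted p = 0.0453), a call lost in 9 of the 21 alternative settings and left-out libraries. The pif4 part of both labels therefore has no transcript check here. All 4 green tissue markers and all 5 root markers had counts. The summed green markers ran from 18434 to 18539 normalized CPM in mrg1 mrg2 pif4 at 28 °C, from 27770 to 28150 in pif4 at 22 °C and from 21164 to 26092 in all other groups. The summed root markers were highest in WT at 22 °C, with 3214 to 3281 normalized CPM against 2095 to 2832 in all other groups. The 2 seed storage markers summed to 67.5 and 69.4 normalized CPM in pif4 at 28 °C and to at most 6.49 in all other libraries. The phloem marker SUC2 had 78.2 to 100.2 normalized CPM in the 28 °C libraries and 112 to 126 in the 22 °C libraries. The part of these markers in the results was not tested.

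Per kb of exon sequence, ELF4 was the most abundant of the 10 transcripts in WT at 22 °C and BOA the least. The length used was the union of the exons of all RefSeq transcripts of a gene. It was 3916 bases for LUX, 3655 for BOA and 2140 for PRR9, so the order depends on this choice. Before division by length PRR9 was lowest, with a mean of 5.63 normalized CPM against 7.78 for BOA. The levels there were 45.5 ± 1.29 CPM per kb for ELF4, 24.8 ± 0.385 for TOC1, 20.3 ± 0.393 for ELF3 and 17.03 ± 0.333 for PRR5 (SD, n = 2). PRR7 followed with 16.3 ± 0.826 CPM per kb, then GI with 9.12 ± 0.235, LUX with 6.51 ± 0.243 and PRR3 with 3.82 ± 0.257. PRR9 and BOA were lowest, with 2.63 ± 0.0917 and 2.13 ± 0.0197 CPM per kb. ELF3 was separated from PRR5 by more than the spread of their libraries, while PRR5 and PRR7 stood within it. After 3 h at 28 °C the order in WT was led by PRR7 with 32.1 ± 0.302 CPM per kb, TOC1 with 30.9 ± 2.85 and ELF4 with 28.6 ± 1.5, of which PRR7 and TOC1 differed by less than the SD of TOC1. LUX, at 17.8 ± 0.584, and GI, at 18.8 ± 1.07, stood above PRR5, at 9.25 ± 0.795. Reads of LUX, BOA and ELF3 are less certain than the others. In the RefSeq annotation (TAIR10.1), LUX shares 1507 bases, exons included, with AT3G46650 on the opposite strand, and BOA shares 1896 bases with UGT76E1. ELF3 shares 183 bases with the antisense RNA AT2G08135 and 24 with ALPHA-VPE. The strand setting of the counting is not given in the sources used here. AT3G46650 itself had 2 to 29 counts per library and UGT76E1 had 0 to 5, while ALPHA-VPE had 20 to 69.

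On the TAIR10.1 build, PRR9 lies at chr2:19232607-19235179, ELF3 at chr2:11058944-11063324 and ELF4 at chr2:16734294-16734953. PRR7 (chr5:637681-642030), PRR5 (chr5:8356204-8358546), BOA (chr5:24003888-24007844), PRR3 (chr5:24197971-24201415) and TOC1 (chr5:24674963-24678550) share a chromosome, LUX is at chr3:17183042-17186959 and GI at chr1:8061751-8067790. The promoters of 5 members are shown, those of LUX, its relative BOA, PRR9, PRR7 and PRR5. All 5 hold a match to the motifs below, as do those of TOC1 and ELF3, which are not shown. Each sequence is the 300 bases before the RefSeq gene start (TAIR10.1), 5′ to 3′ on the gene's own strand. Capitals mark matches on either strand to 4 motifs: the evening element AAAATATCT, the CCA1-binding site AAAAATCT, the LUX-binding sites GATTCG and GATACG, and the G-box CACGTG, which PIF and other bHLH proteins bind. The motifs share bases in none of the matches found. LUX (chr3:17182742-17183041, plus strand) and BOA (chr5:24003588-24003887, plus strand) each hold a G-box and, closer to the start, an evening element.
LUX: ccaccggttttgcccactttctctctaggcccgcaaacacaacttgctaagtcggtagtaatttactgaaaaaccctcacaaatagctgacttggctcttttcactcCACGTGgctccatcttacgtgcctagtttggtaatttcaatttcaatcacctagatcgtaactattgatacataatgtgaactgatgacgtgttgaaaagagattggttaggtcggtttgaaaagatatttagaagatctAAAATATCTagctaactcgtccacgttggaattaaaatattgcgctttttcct
BOA: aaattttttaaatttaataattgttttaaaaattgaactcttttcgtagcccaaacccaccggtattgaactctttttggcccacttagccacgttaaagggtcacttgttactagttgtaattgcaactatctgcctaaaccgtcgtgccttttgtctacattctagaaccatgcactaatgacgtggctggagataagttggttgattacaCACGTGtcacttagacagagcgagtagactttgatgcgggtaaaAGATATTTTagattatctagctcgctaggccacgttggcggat
PRR9 (chr2:19232307-19232606, plus strand) holds a pair of G-boxes and a LUX-binding site, and PRR7 (chr5:642031-642330, minus strand) holds a single G-box.
PRR9: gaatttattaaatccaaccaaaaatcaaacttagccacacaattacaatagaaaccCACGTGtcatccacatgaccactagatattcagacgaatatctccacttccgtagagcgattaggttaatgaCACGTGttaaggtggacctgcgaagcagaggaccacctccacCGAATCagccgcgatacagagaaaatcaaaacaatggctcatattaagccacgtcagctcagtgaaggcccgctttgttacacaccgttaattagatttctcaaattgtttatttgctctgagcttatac
PRR7: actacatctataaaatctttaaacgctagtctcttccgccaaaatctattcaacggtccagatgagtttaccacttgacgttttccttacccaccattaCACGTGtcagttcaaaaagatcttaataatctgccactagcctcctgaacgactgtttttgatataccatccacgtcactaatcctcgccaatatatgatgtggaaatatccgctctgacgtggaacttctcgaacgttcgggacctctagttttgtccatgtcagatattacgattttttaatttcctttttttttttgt
PRR5 (chr5:8358547-8358846, minus strand) holds a pair of evening elements and a CCA1-binding site.
PRR5: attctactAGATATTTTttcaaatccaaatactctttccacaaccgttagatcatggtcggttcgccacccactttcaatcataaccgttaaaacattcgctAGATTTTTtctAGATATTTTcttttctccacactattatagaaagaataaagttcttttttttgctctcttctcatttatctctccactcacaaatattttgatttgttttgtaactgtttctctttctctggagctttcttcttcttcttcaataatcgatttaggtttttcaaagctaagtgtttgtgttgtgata
Among the 9 members whose promoters were searched, 4 held an evening element in this window (PRR5, TOC1, LUX and BOA), against 2.79% of the 27443 promoters of protein-coding genes. A G-box was found in 4 members (PRR9, PRR7, LUX and BOA), against 7.09% of all promoters. A LUX-binding site was found in 2 (PRR9 and ELF3), against 14.3%, and a CCA1-binding site in 1 (PRR5), against 7.94%. The windows of PRR3 and GI held no match to these letters. A match describes the sequence and is no evidence of binding.

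**Figure D1:**
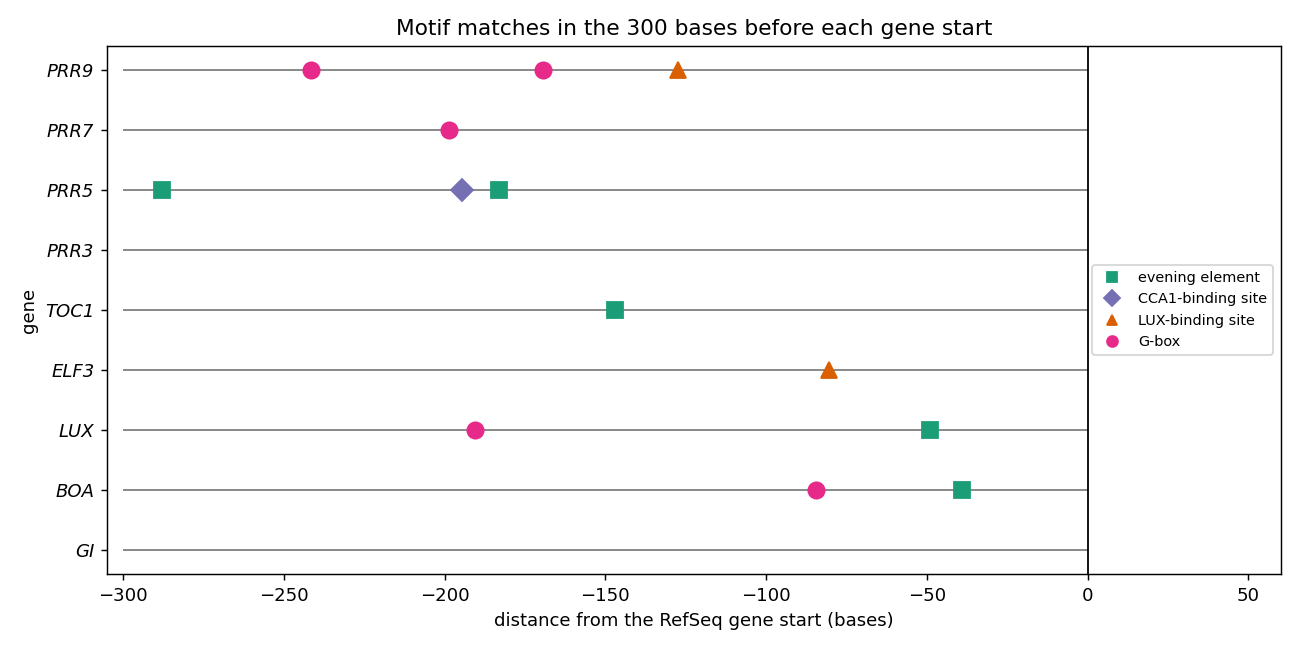
Matches to 4 motifs in the 300 bases before the RefSeq start of 9 of the genes, with the distance from the start in bases on the x axis and 1 line per gene. LUX and BOA hold a G-box and a nearer evening element, PRR5 holds 2 evening elements, and PRR3 and GI hold no match.

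In WT most of these genes were higher after the warm treatment than without it, and a pair of them were lower. The labels give no hour of harvest, and these genes cycle in continuous light. Differences between the temperatures are termed warm responses here, and the part of clock time in them was not tested. In WT, 6 of the 10 members rose (LUX, GI, PRR7, PRR9, PRR3 and TOC1) and 2 fell (PRR5 and ELF4), where 13.3% of all genes tested rose and 13.7% fell. The median log2 change of the members was 0.59, against 0.01 over all genes. In mrg1 mrg2, 7 members rose and 2 fell, with 12.8% and 14.1% of all genes. In pif4, 5 rose and 1 fell, with 13.2% and 12.4% of all genes. In mrg1 mrg2 pif4, 6 rose and 1 fell, with 12.9% and 14.3% of all genes. Rose and fell are used of genes with an adjusted p under 0.05, and the ± after a log2 change is its approximate standard error.

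**Figure D2:**
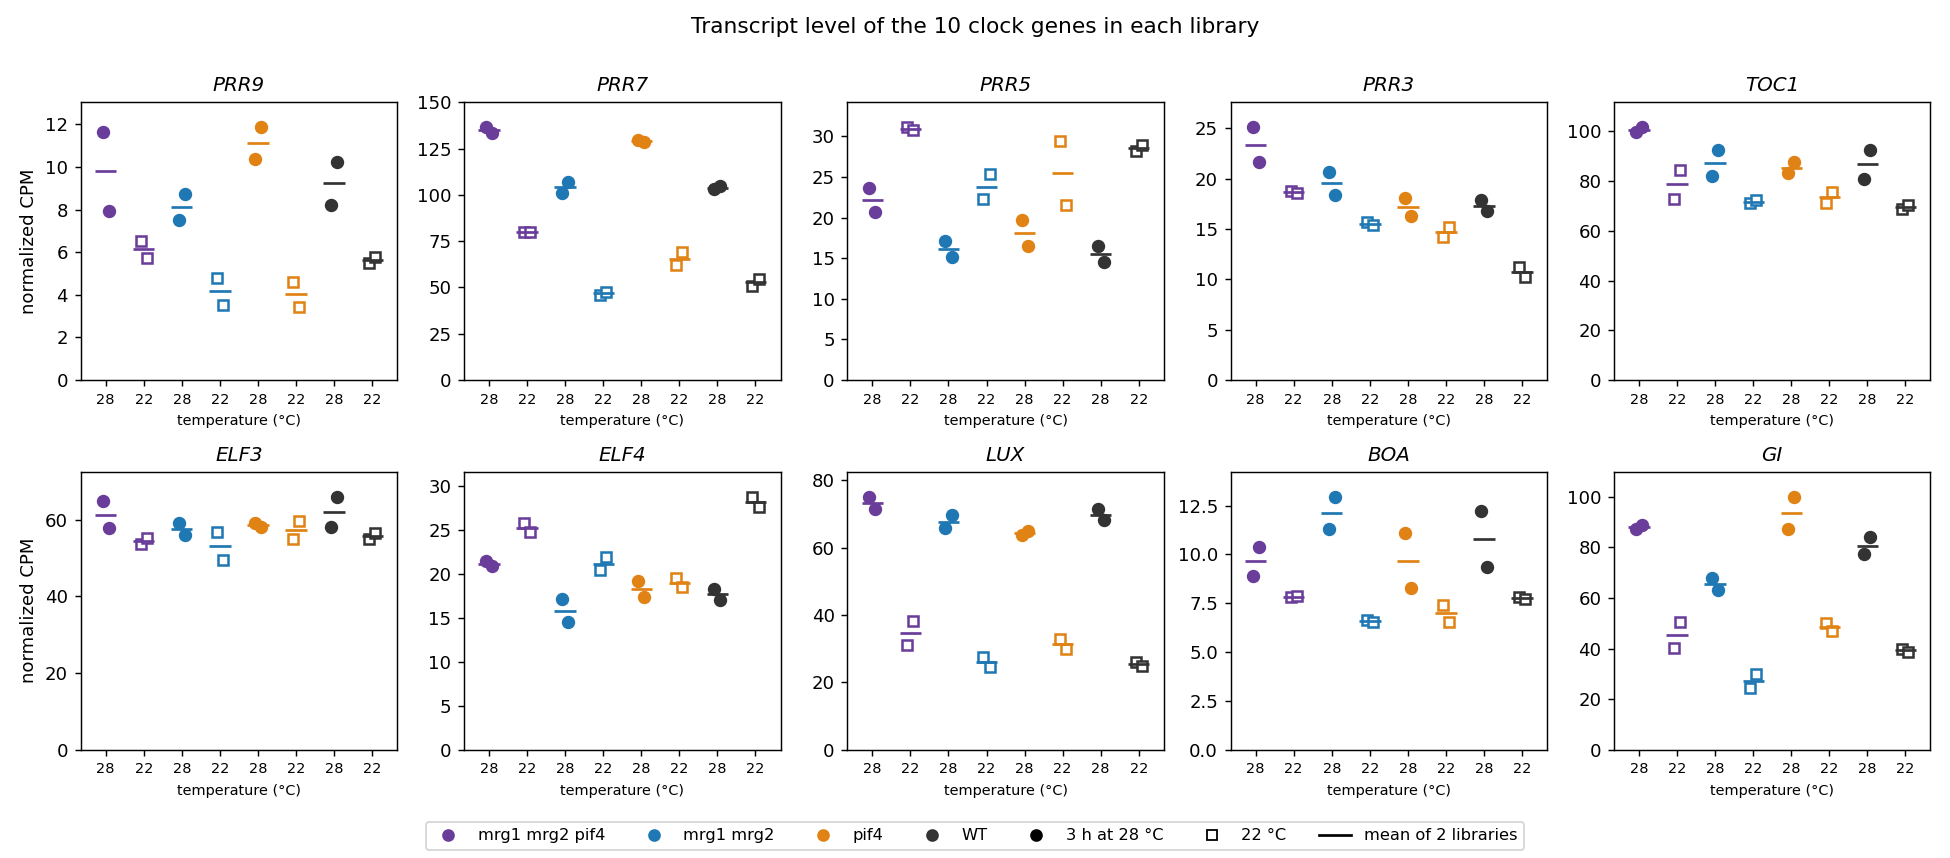
Level of each of the 10 genes in every library, in normalized CPM from 0, with filled circles for 3 h at 28 °C, open squares for 22 °C, colours for genotypes and a bar for the mean of the 2 libraries of a group. In LUX, GI, PRR7, PRR9 and BOA all 8 libraries at 28 °C lie above all 8 at 22 °C. The 2 temperatures overlap in PRR5, PRR3, TOC1, ELF3 and ELF4. The share of all genes with such a separation was not computed.

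Among the evening complex genes, LUX changed most. Its level was 71.5 and 68.2 normalized CPM in WT at 28 °C, against 26.2 and 24.8 in WT at 22 °C, a rise of 1.45 ± 0.09 on the log2 scale or 2.74-fold (adjusted p = 1.84e-15). In mrg1 mrg2 LUX had 65.7 and 69.7 normalized CPM at 28 °C and 27.5 and 24.5 at 22 °C, a log2 rise of 1.38 ± 0.09 (adjusted p = 6.43e-15). In pif4 it had 63.7 and 65.1 at 28 °C and 33.01 and 30.01 at 22 °C (1.03 ± 0.09, adjusted p = 1.95e-11). The lowest 28 °C library of these genotypes stood above their highest 22 °C library. The triple mutant had a LUX level of 75.02 and 71.5 normalized CPM at 28 °C and of 31.2 and 38.2 at 22 °C (1.08 ± 0.09, adjusted p = 2.73e-12). The 28 °C libraries of all genotypes lay between 63.7 and 75.0 normalized CPM, and the 22 °C levels were higher in pif4 and the triple mutant than in mrg1 mrg2 and WT.

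ELF4, the small partner of ELF3, went the other way. In WT it had 18.3 and 17.02 normalized CPM at 28 °C and 28.7 and 27.6 at 22 °C, and fell by 0.67 ± 0.12 on the log2 scale (adjusted p = 3.08e-05). The fall in mrg1 mrg2 was 0.41 ± 0.12 (adjusted p = 0.00864), with 17.1 and 14.5 normalized CPM at 28 °C and 20.4 and 21.9 at 22 °C. That call was lost without mrg1 mrg2 replicate 2 at 28 °C or mrg1 mrg2 replicate 2 at 22 °C and with DESeq2 (adjusted p 0.0542 to 0.129). In pif4 the levels overlapped, with 19.2 and 17.4 normalized CPM at 28 °C and 19.5 and 18.5 at 22 °C (log2 change -0.05 ± 0.12, adjusted p = 0.822). For ELF4 the triple mutant had 21.4 and 20.9 normalized CPM at 28 °C and 25.8 and 24.7 at 22 °C, libraries that did not overlap but a change that did not pass (-0.26 ± 0.11, adjusted p = 0.0927). WT at 22 °C held the highest ELF4 level of the 8 groups, and its level in pif4 at 22 °C was close to that of WT at 28 °C.

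ELF3, the scaffold, was called in none of the 17 comparisons made here. Its level lay between 49.5 and 65.9 normalized CPM in the 16 libraries, and the group means differed by at most 1.17-fold. Its log2 change in warmth was 0.15 ± 0.09 in WT (adjusted p = 0.207), 0.12 ± 0.08 in mrg1 mrg2 (0.337), 0.03 ± 0.09 in pif4 (0.814) and 0.17 ± 0.08 in the triple mutant (0.142). BOA, the relative of LUX, was a low transcript with a smaller change. It had 11.3 and 12.9 normalized CPM at 28 °C and 6.64 and 6.53 at 22 °C in mrg1 mrg2, where it rose by 0.87 ± 0.19 (adjusted p = 0.000384). In WT BOA had 12.2 and 9.37 normalized CPM at 28 °C and 7.83 and 7.73 at 22 °C (0.49 ± 0.19, adjusted p = 0.0564), a difference called without WT replicate 2 at 28 °C (0.0315). In pif4 it had 11.1 and 8.27 normalized CPM at 28 °C and 7.4 and 6.57 at 22 °C (0.50 ± 0.20, adjusted p = 0.0585), called without pif4 replicate 2 at 28 °C (0.0319). BOA levels in the triple mutant were 8.89 and 10.4 at 28 °C and 7.81 and 7.85 at 22 °C (0.31 ± 0.19, adjusted p = 0.232). In each genotype both 28 °C libraries lay above both 22 °C libraries for BOA, but the 28 °C libraries of WT and of pif4 were further from each other than those of mrg1 mrg2.

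GI rose in every genotype. It had 77.4 and 83.9 normalized CPM in WT at 28 °C and 39.96 and 38.5 in WT at 22 °C, a rise of 1.04 ± 0.09 on the log2 scale or 2.05-fold (adjusted p = 2.72e-11). In mrg1 mrg2 GI had 67.9 and 63 normalized CPM at 28 °C and 24.4 and 29.9 at 22 °C (1.27 ± 0.10, adjusted p = 2.91e-13). The mrg1 mrg2 libraries were the lowest of their temperature for GI in both conditions. In pif4 GI had 87.2 and 99.8 normalized CPM at 28 °C and 50 and 46.9 at 22 °C (0.95 ± 0.09, adjusted p = 1.97e-10). In mrg1 mrg2 pif4 it had 87.2 and 88.9 at 28 °C and 40.3 and 50.3 at 22 °C (0.96 ± 0.09, adjusted p = 1.17e-10). The pif4 and triple mutant libraries overlapped with each other at each temperature.

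The order of the 8 groups differed between these genes. GI ran from pif4 and the triple mutant at 28 °C, which overlapped, through WT and then mrg1 mrg2 at 28 °C, to pif4 and the triple mutant at 22 °C, which overlapped, WT at 22 °C and mrg1 mrg2 at 22 °C. LUX ran from the triple mutant at 28 °C through WT and mrg1 mrg2 at 28 °C, which overlapped, to pif4 at 28 °C, then the triple mutant and pif4 at 22 °C, which overlapped, and last mrg1 mrg2 and WT at 22 °C, which overlapped.

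Of the PRR genes, PRR7 rose in every genotype. Its level was 103 and 105 normalized CPM in WT at 28 °C, against 50.8 and 54.6 in WT at 22 °C, a 1.97-fold rise (log2 0.98 ± 0.07, adjusted p = 7.13e-14). In mrg1 mrg2 PRR7 had 101 and 107 normalized CPM at 28 °C and 45.8 and 47.7 at 22 °C (1.15 ± 0.07, adjusted p = 7.87e-16). In pif4 it had 129 and 129 at 28 °C and 62.02 and 69.2 at 22 °C (0.97 ± 0.07, adjusted p = 6.48e-14). At both temperatures the pif4 libraries lay above those of WT and mrg1 mrg2. The triple mutant was highest, with 136 and 133 normalized CPM at 28 °C and 80.2 and 80.1 at 22 °C (0.75 ± 0.07, adjusted p = 3.12e-11). Of the 8 groups, WT and mrg1 mrg2 at 28 °C overlapped for PRR7, and every other pair of neighbours in the order of its means was apart.

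PRR9, the earliest of the family in the day, was a low transcript that also rose in every genotype. It had 8.23 and 10.2 normalized CPM at 28 °C and 5.49 and 5.77 at 22 °C in WT (0.70 ± 0.23, adjusted p = 0.0188). The WT call was lost without WT replicate 2 at 28 °C or either WT library at 22 °C and with DESeq2 (adjusted p 0.069 to 0.176). In mrg1 mrg2 PRR9 had 7.51 and 8.74 normalized CPM at 28 °C and 4.77 and 3.54 at 22 °C (0.95 ± 0.23, adjusted p = 0.00193), and that call was lost without mrg1 mrg2 replicate 2 at 22 °C (adjusted p = 0.0526). In pif4 it had 10.4 and 11.9 normalized CPM at 28 °C and 4.61 and 3.44 at 22 °C, a 2.77-fold rise (log2 1.47 ± 0.23, adjusted p = 5.07e-06). Its libraries overlapped with those of the triple mutant at 28 °C and with those of mrg1 mrg2 at 22 °C. PRR9 levels in the triple mutant were 11.6 and 7.95 at 28 °C and 6.52 and 5.73 at 22 °C (0.65 ± 0.21, adjusted p = 0.0184). The 28 °C libraries of the triple mutant spread most, and its call was lost without mrg1 mrg2 pif4 replicate 1 at 28 °C or mrg1 mrg2 pif4 replicate 2 at 22 °C and with DESeq2 (adjusted p 0.0815 to 0.315).

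PRR5, which follows PRR9 and PRR7 in the day, was the member of the family that fell. It had 16.5 and 14.6 normalized CPM in WT at 28 °C and 28.2 and 28.9 in WT at 22 °C, a fall of 0.88 on the log2 scale (SE 0.14, adjusted p = 3.16e-06). In mrg1 mrg2 the levels were 17.1 and 15.2 at 28 °C and 22.3 and 25.3 at 22 °C, and PRR5 fell by 0.55 ± 0.13 (adjusted p = 0.00143). Levels of 19.7 and 16.5 at 28 °C and 29.5 and 21.5 at 22 °C were found in pif4, where it fell by 0.47 ± 0.13 (adjusted p = 0.00686), and the 22 °C libraries of pif4 spread most. The pif4 call was lost without pif4 replicate 2 at 28 °C or pif4 replicate 1 at 22 °C (adjusted p 0.0864 to 0.277). In mrg1 mrg2 pif4 PRR5 had 23.6 and 20.7 normalized CPM at 28 °C and 31.1 and 30.8 at 22 °C and fell by 0.49 ± 0.12 (adjusted p = 0.00273), a call lost without mrg1 mrg2 pif4 replicate 2 at 28 °C (adjusted p = 0.0722).

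PRR3 and TOC1 rose in WT, mrg1 mrg2 and the triple mutant. PRR3, which is known to protect TOC1 from degradation, had 17.9 and 16.7 normalized CPM at 28 °C and 11.2 and 10.2 at 22 °C in WT (0.70 ± 0.14, adjusted p = 0.000219). Its rise was 0.34 ± 0.13 in mrg1 mrg2 (adjusted p = 0.0453) and 0.32 ± 0.12 in the triple mutant (adjusted p = 0.0478). The first of these was lost without mrg1 mrg2 replicate 1 at 28 °C, mrg1 mrg2 pif4 replicate 1 at 22 °C or either mrg1 mrg2 library at 22 °C, with library totals alone, with no filter on low counts and with DESeq2 (adjusted p 0.051 to 0.312), and the second in 15 of the 21 alternatives (adjusted p up to 0.334). The pif4 change of 0.23 ± 0.13 did not pass (adjusted p = 0.22). TOC1, the last PRR of the day, had 80.97 and 92.3 normalized CPM at 28 °C and 68.9 and 70.5 at 22 °C in WT and rose by 0.31 ± 0.08 (adjusted p = 0.0027), a call lost without WT replicate 2 at 28 °C (adjusted p = 0.104). It rose by 0.28 ± 0.08 in mrg1 mrg2 (adjusted p = 0.00622) and by 0.35 ± 0.08 in the triple mutant (adjusted p = 0.000527). The mrg1 mrg2 call was lost without mrg1 mrg2 replicate 2 at 28 °C or mrg1 mrg2 replicate 1 at 22 °C (adjusted p 0.0545 to 0.137), and that of the triple mutant without mrg1 mrg2 pif4 replicate 1 at 22 °C (adjusted p = 0.0523). In pif4 the rise of 0.22 ± 0.08 passed narrowly (adjusted p = 0.0405) and was lost in 9 of the 21 alternatives. TOC1 was higher in replicate 2 than in replicate 1 in all 8 groups, as was the share of ribosomal RNA counts, whose part in the TOC1 levels was not tested.

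**Figure D3:**
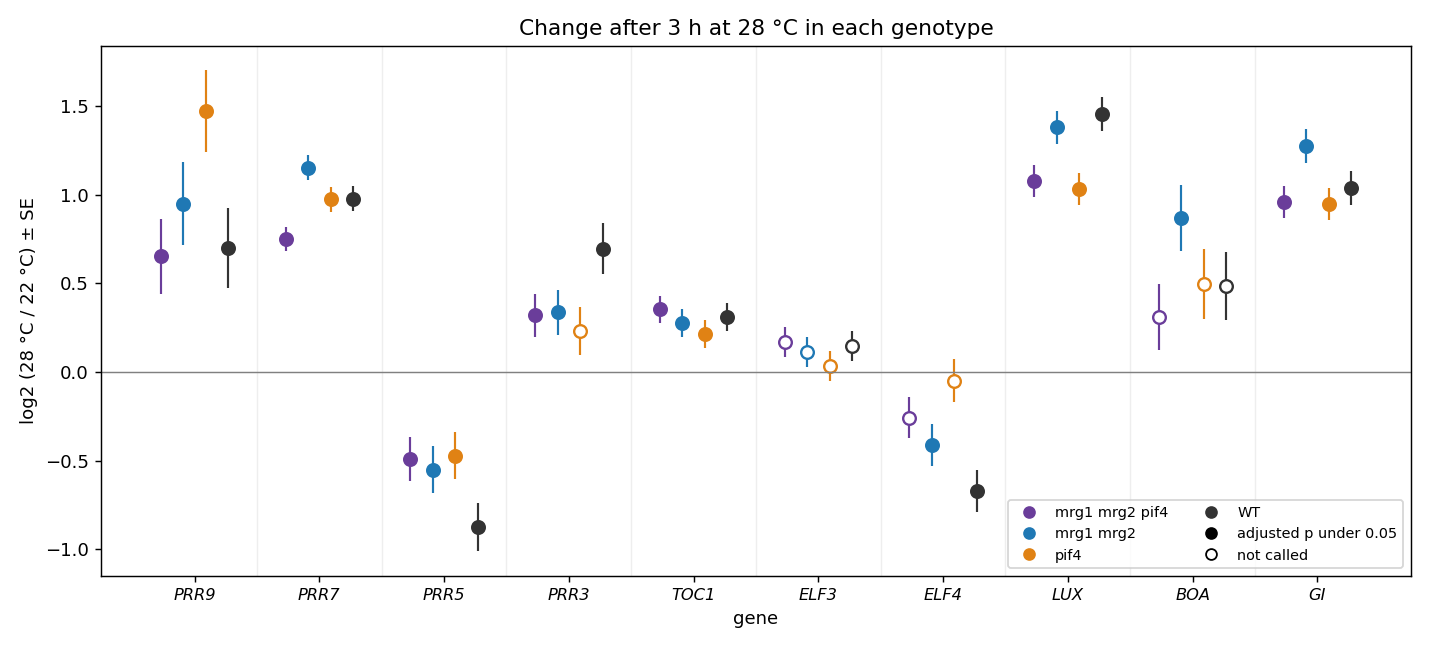
Log2 change after 3 h at 28 °C against 22 °C for the 10 genes in each genotype, with bars for the standard error, filled points for adjusted p under 0.05 and open points for changes not called. LUX, GI, PRR7 and PRR9 rose and PRR5 fell in all 4 genotypes, while ELF4 stood at -0.67 in WT and at -0.05 in pif4.

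Whether a mutant's warm response differed from that of WT was tested as an interaction. In pif4 1 member passed, ELF4, whose warm change was higher than in WT by 0.62 ± 0.17 on the log2 scale (adjusted p = 0.0276), where 2.35% of all genes had a higher and 1.76% a lower response. At 28 °C ELF4 was at the WT level in pif4, and at 22 °C it was below it. This call was lost without pif4 replicate 1 at 28 °C, WT replicate 2 at 28 °C, either pif4 library at 22 °C or either WT library at 22 °C, with library totals alone and with DESeq2 (adjusted p 0.0512 to 0.172). The summed root markers, at 2546 and 2554 normalized CPM in pif4 at 28 °C, 2410 and 2433 in pif4 at 22 °C, 2095 and 2128 in WT at 28 °C and 3214 and 3281 in WT at 22 °C, had the same order of the temperatures in WT as ELF4, and their part in it was not tested. The LUX response was lower than in WT by a log2 difference that did not pass, -0.42 ± 0.13 in pif4 (adjusted p = 0.0596) and -0.38 ± 0.13 in the triple mutant (adjusted p = 0.0813). The first was called in the fits without either mrg1 mrg2 pif4 library at 22 °C (0.0376 and 0.0447), and the second without mrg1 mrg2 pif4 replicate 1 at 22 °C (0.0186). For PRR9 the difference was 0.77 ± 0.33 in pif4 (adjusted p = 0.213). In the triple mutant 0 members passed, with 2.37% and 3.47% of all genes, and in mrg1 mrg2 0 members passed, with 2.37% and 2.44%. All 3 interactions use the same WT libraries.

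The mutants were next compared with WT at 28 °C. In mrg1 mrg2 0 rose and 1 fell, with 6.69% and 7.4% of all genes, and in pif4 1 rose and 0 fell, with 1.17% and 0.423%. In mrg1 mrg2 pif4 3 rose and 0 fell, with 5.29% and 6.55%. PRR7 was higher than in WT by 0.38 ± 0.07 on the log2 scale in the triple mutant (adjusted p = 0.00013) and by 0.31 ± 0.07 in pif4 (adjusted p = 0.00643). The pif4 call was lost without either pif4 library at 28 °C or either WT library at 28 °C and with library totals alone (adjusted p 0.0713 to 0.155). The other risen members of the triple mutant were PRR5, with 23.6 and 20.7 normalized CPM against 16.5 and 14.6 in WT (0.50 ± 0.14, adjusted p = 0.0121), and PRR3, with 25.1 and 21.7 against 17.9 and 16.7 (0.43 ± 0.13, adjusted p = 0.0221). The PRR5 call was lost without mrg1 mrg2 pif4 replicate 1 at 28 °C or WT replicate 2 at 28 °C and with DESeq2 (adjusted p 0.0531 to 0.139). That of PRR3 was lost without mrg1 mrg2 pif4 replicate 1 at 28 °C or either WT library at 28 °C and with DESeq2 (adjusted p 0.0696 to 0.229). GI fell in mrg1 mrg2 by 0.30 ± 0.09 (adjusted p = 0.0219), a call lost without mrg1 mrg2 replicate 2 at 28 °C or WT replicate 2 at 28 °C, with library totals alone and with DESeq2 (adjusted p 0.0597 to 0.197). In these comparisons LUX, BOA, PRR9, TOC1, ELF3 and ELF4 were not called in any mutant. The summed green markers at 28 °C were 18434 to 18539 normalized CPM in the triple mutant, 21164 to 22449 in mrg1 mrg2 and 25153 to 26092 in pif4, against 23154 to 23161 in WT, and their part in these differences was not tested.

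At 22 °C the mutants are all compared with the same WT libraries. In mrg1 mrg2 1 rose and 2 fell, with 12.3% and 12.2% of all genes. In pif4 4 rose and 1 fell, with 5.8% and 5.05%, and in mrg1 mrg2 pif4 3 rose and 0 fell, with 7.86% and 7.55%. PRR3 rose in all 3 mutants, with 18.7 and 18.6 normalized CPM in the triple mutant, 15.7 and 15.4 in mrg1 mrg2 and 14.2 and 15.2 in pif4, against 11.2 and 10.2 in WT. None of the mutant libraries overlapped with WT for PRR3. In mrg1 mrg2 this also held for PRR9, PRR7, PRR5, TOC1 and BOA, which were not called. The share of all genes with such a separation was not computed. The log2 differences of PRR3 were 0.80 ± 0.14 in the triple mutant (adjusted p = 3.79e-05), 0.54 ± 0.14 in mrg1 mrg2 (adjusted p = 0.00376) and 0.46 ± 0.14 in pif4 (adjusted p = 0.0294). The call in mrg1 mrg2 was lost without WT replicate 2 at 22 °C (adjusted p = 0.0645), and the call in pif4 without either pif4 library at 22 °C or either WT library at 22 °C, with library totals alone and with DESeq2 (adjusted p 0.0589 to 0.225). PRR7 rose by 0.60 ± 0.07 in the triple mutant (adjusted p = 4.13e-08) and by 0.32 ± 0.07 in pif4 (adjusted p = 0.00219), and the pif4 call was lost without pif4 replicate 2 at 22 °C or WT replicate 1 at 22 °C and with library totals alone (adjusted p 0.0652 to 0.0937).

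LUX at 22 °C was higher than in WT by 0.45 ± 0.10 on the log2 scale in the triple mutant (adjusted p = 0.000924) and by 0.30 ± 0.10 in pif4 (adjusted p = 0.0384). The triple mutant call was lost without mrg1 mrg2 pif4 replicate 2 at 22 °C (adjusted p = 0.0905). In pif4 it was lost without pif4 replicate 1 at 22 °C or either WT library at 22 °C, with library totals alone, with no filter on low counts and with DESeq2 (adjusted p 0.0605 to 0.253). GI moved in opposite directions in the parents of the triple mutant. It was lower than in WT by 0.53 in mrg1 mrg2 (SE 0.10, adjusted p = 9.4e-05) and higher by 0.30 ± 0.10 in pif4 (adjusted p = 0.0355), and the pif4 call was lost without either pif4 library at 22 °C or either WT library at 22 °C, with library totals alone and with DESeq2 (adjusted p 0.0673 to 0.206). ELF4 fell in mrg1 mrg2 by 0.41 ± 0.11 (adjusted p = 0.0059) and in pif4 by 0.57 ± 0.12 (adjusted p = 0.000537). The mrg1 mrg2 call was lost without mrg1 mrg2 replicate 1 at 22 °C or WT replicate 1 at 22 °C (adjusted p 0.0512 to 0.0777). In the triple mutant ELF4 was not called (adjusted p = 0.39), with 25.8 and 24.7 normalized CPM against 28.7 and 27.6 in WT. The root markers summed to 3214 to 3281 normalized CPM in WT at 22 °C and 2761 to 2832 in the triple mutant, an order shared with ELF4. They summed to 2430 to 2503 in mrg1 mrg2 and 2410 to 2433 in pif4, which overlapped. The green markers summed to 24379 to 24682 normalized CPM in the triple mutant and 24437 to 24728 in mrg1 mrg2. In pif4 they summed to 27770 to 28150, against 22741 to 23117 in WT at 22 °C. At 28 °C the root markers were highest in pif4 (2546 to 2554), while ELF4 was highest in the triple mutant (20.9 to 21.4). The part of either list in these differences was not tested.

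**Figure D4:**
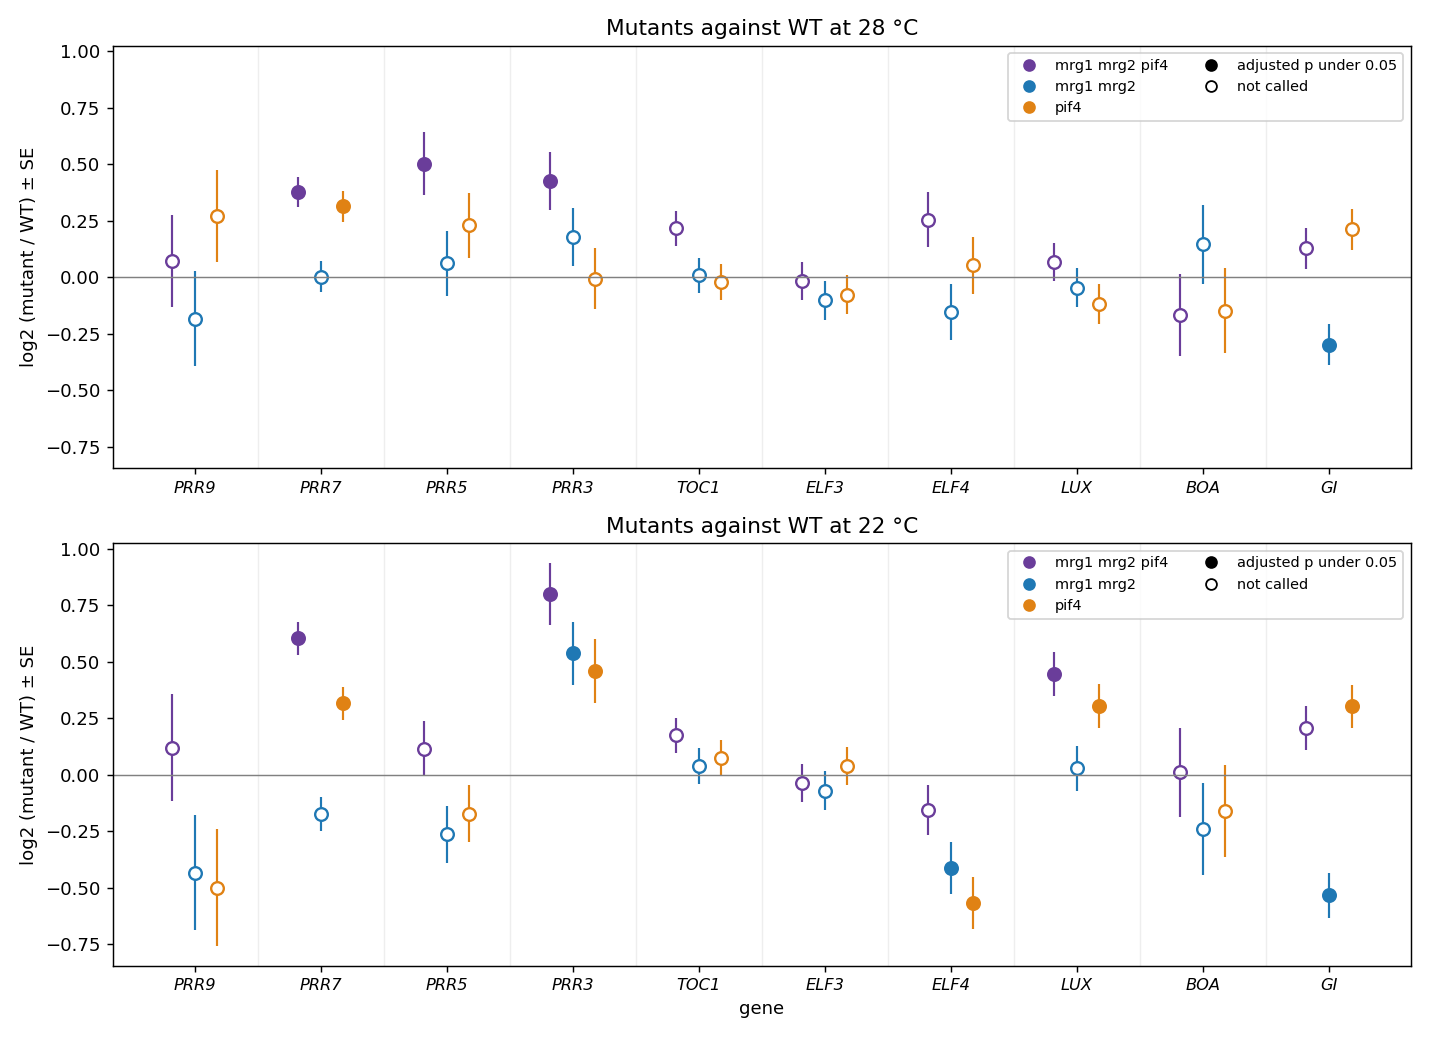
Log2 difference of each mutant from WT for the 10 genes at 28 °C (top) and at 22 °C (bottom), with bars for the standard error and filled points for adjusted p under 0.05. PRR7 was higher in the triple mutant and in pif4 at both temperatures, and GI was lower in mrg1 mrg2 at both.

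The triple mutant was also set against each of its parents, which compares libraries that differ in the pif4 label, without a transcript check, or in mrg1 mrg2. Against mrg1 mrg2 at 28 °C 4 members rose and 0 fell, with 4.67% and 5.28% of all genes, and at 22 °C 4 rose and 0 fell, with 4.89% and 4.94%. PRR7, PRR5 and GI were among them at both temperatures. PRR7 exceeded its mrg1 mrg2 level by 0.38 ± 0.07 at 28 °C (adjusted p = 0.000124). At 22 °C the difference was 0.78 ± 0.07 (adjusted p = 2.1e-10), where it had 80.2 and 80.1 normalized CPM in the triple mutant against 45.8 and 47.7 in mrg1 mrg2. For GI the differences were 0.43 ± 0.09 at 28 °C (adjusted p = 0.000957) and 0.74 ± 0.10 at 22 °C (adjusted p = 8.56e-07). PRR5 was higher at 28 °C by 0.44 ± 0.13 (adjusted p = 0.0249), a call lost without mrg1 mrg2 pif4 replicate 1 at 28 °C or either mrg1 mrg2 library at 28 °C and with DESeq2 (adjusted p 0.0518 to 0.216), and at 22 °C by 0.38 ± 0.12 (adjusted p = 0.0446), lost in 7 of the 21 alternatives. ELF4 was higher at 28 °C by 0.41 ± 0.12 (adjusted p = 0.0203), lost without either mrg1 mrg2 pif4 library at 28 °C or mrg1 mrg2 replicate 2 at 28 °C and with DESeq2 (adjusted p 0.0913 to 0.239). LUX was higher at 22 °C by 0.42 ± 0.10 (adjusted p = 0.0028), lost without mrg1 mrg2 pif4 replicate 2 at 22 °C or mrg1 mrg2 replicate 2 at 22 °C (adjusted p 0.0834 to 0.184).

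Against pif4, 2 members rose and 0 fell at 28 °C, with 3.39% and 6.03% of all genes, and 2 rose and 0 fell at 22 °C, with 3.27% and 3.12%. At 28 °C these were PRR3, with 25.1 and 21.7 normalized CPM in the triple mutant against 18.1 and 16.3 in pif4 (0.43 ± 0.13, adjusted p = 0.0216), and TOC1, with 99.5 and 102 against 83.1 and 87.6 (0.24 ± 0.08, adjusted p = 0.0448). The libraries of the triple mutant lay above those of pif4 in both genes, and also in PRR7, PRR5, ELF4 and LUX, which were not called. The PRR3 call was lost without mrg1 mrg2 pif4 replicate 1 at 28 °C or either pif4 library at 28 °C and with DESeq2 (adjusted p 0.0536 to 0.24), and that of TOC1 in 11 of the 21 alternatives. At 22 °C the pair was PRR7 (0.29 ± 0.07, adjusted p = 0.00867) and ELF4, with 25.8 and 24.7 normalized CPM against 19.5 and 18.5 (0.41 ± 0.12, adjusted p = 0.0252). The PRR7 call was lost without either mrg1 mrg2 pif4 library at 22 °C or pif4 replicate 1 at 22 °C (adjusted p 0.0605 to 0.192). ELF4 was lost without either mrg1 mrg2 pif4 library at 22 °C or either pif4 library at 22 °C and with DESeq2 (adjusted p 0.0855 to 0.21).

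Of the clock genes outside this group, 38 were listed and 37 passed the filter, the exception being FT. In WT 12 of the 37 rose and 8 fell in warmth, with 13.3% and 13.7% of all genes. In mrg1 mrg2 12 rose and 6 fell, with 12.8% and 14.1% of all genes. In pif4 12 rose and 6 fell, with 13.2% and 12.4%, and in mrg1 mrg2 pif4 9 rose and 8 fell, with 12.9% and 14.3%. The median log2 change of these clock genes in WT was 0.06. The morning MYB genes that the PRR proteins repress fell in WT, CCA1 by 0.54 ± 0.07 (adjusted p = 2.78e-07) and LHY by 1.88 ± 0.07 (adjusted p = 1.57e-22). RVE8, a MYB activator of evening genes, fell by 0.99 ± 0.12 (adjusted p = 2.06e-08), while its relative RVE4 rose by 0.46 ± 0.07 (adjusted p = 2.63e-06). All 4 LNK genes, whose proteins are coactivators of RVE8, rose, led by LNK1 with 1.22 ± 0.08 (adjusted p = 1.12e-14). PIF4 and PIF5, growth genes that the evening complex represses, rose by 1.52 ± 0.09 (adjusted p = 4.14e-16) and 0.79 ± 0.07 (adjusted p = 2.76e-11).

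Other MYB genes related to CCA1 split. RVE2 fell by 1.43 ± 0.07 (adjusted p = 2.99e-18) and RVE1 by 0.72 ± 0.09 (adjusted p = 2.38e-08), while RVE7 rose by 1.63 ± 0.12 (adjusted p = 5.14e-14). Of the 4 ELF4-like genes EFL2 alone was called in WT (0.49 ± 0.17, adjusted p = 0.0306), and that call was lost without WT replicate 1 at 28 °C (0.331) or either WT library at 22 °C (0.148 and 0.0723), with library totals alone (0.0723) and with DESeq2 (0.126). In WT 13.3% of all genes rose and 13.7% fell, so 1 call among these 4 genes is close to the share of all genes. Of the LOV-domain F-box genes that GI works with, 0 of 3 were called in any of the 4 warm responses. Over all genes 12.8% to 13.3% rose and 12.4% to 14.3% fell in these responses, and 3 genes are too few to set against these shares. In the triple mutant at 22 °C 10 of the 37 other clock genes were higher than in WT and 4 lower, with 7.86% and 7.55% of all genes. FKF1, named here after its values were seen, was among the higher ones (0.47 ± 0.14, adjusted p = 0.0192). Its call was lost without any 1 of the 4 libraries compared and with DESeq2 (adjusted p = 0.117). In pif4 0 of the 37 had a higher and 1 a lower warm response than WT, with 2.35% and 1.76% of all genes. That gene was LNK1 (-0.43 ± 0.12, adjusted p = 0.0264). In mrg1 mrg2 2 had a higher and 0 a lower response, with 2.37% and 2.44% of all genes. They were RVE2 (0.64 ± 0.10, adjusted p = 7.85e-05) and GRP8 (0.31 ± 0.09, adjusted p = 0.0277). These counts are near the shares of all genes. In the triple mutant 3 had a higher and 4 a lower response than WT, with 2.37% and 3.47% of all genes. These were led by RVE2 (0.72 ± 0.10, adjusted p = 7.23e-06), GRP8 (0.49 ± 0.09, adjusted p = 0.000137), LNK2 (-0.50 ± 0.09, adjusted p = 0.000168) and LHY (-0.45 ± 0.10, adjusted p = 0.00216). GRP8 encodes a clock-controlled RNA-binding protein. LNK3 lost its WT call without WT replicate 1 at 28 °C (0.237) or at 22 °C (0.186), with library totals alone (0.0557) and with DESeq2 (0.0838), and LNK4 without WT replicate 1 at 28 °C (0.0891). The LNK1 interaction in pif4 was lost without either pif4 library at 22 °C (0.0709 and 0.0628), WT replicate 2 at 22 °C (0.209), WT replicate 2 at 28 °C (0.0924) or pif4 replicate 1 at 28 °C (0.0817), with library totals alone (0.0874) and with DESeq2 (0.0698). That of LHY in the triple mutant was lost with library totals alone (0.0696). The GRP8 interaction in mrg1 mrg2 was lost without replicate 1 of mrg1 mrg2 at 28 °C (0.111), replicate 2 of mrg1 mrg2 at 22 °C (0.188), or replicate 1 of WT at 28 °C (0.148) or at 22 °C (0.152).

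**Figure D5:**
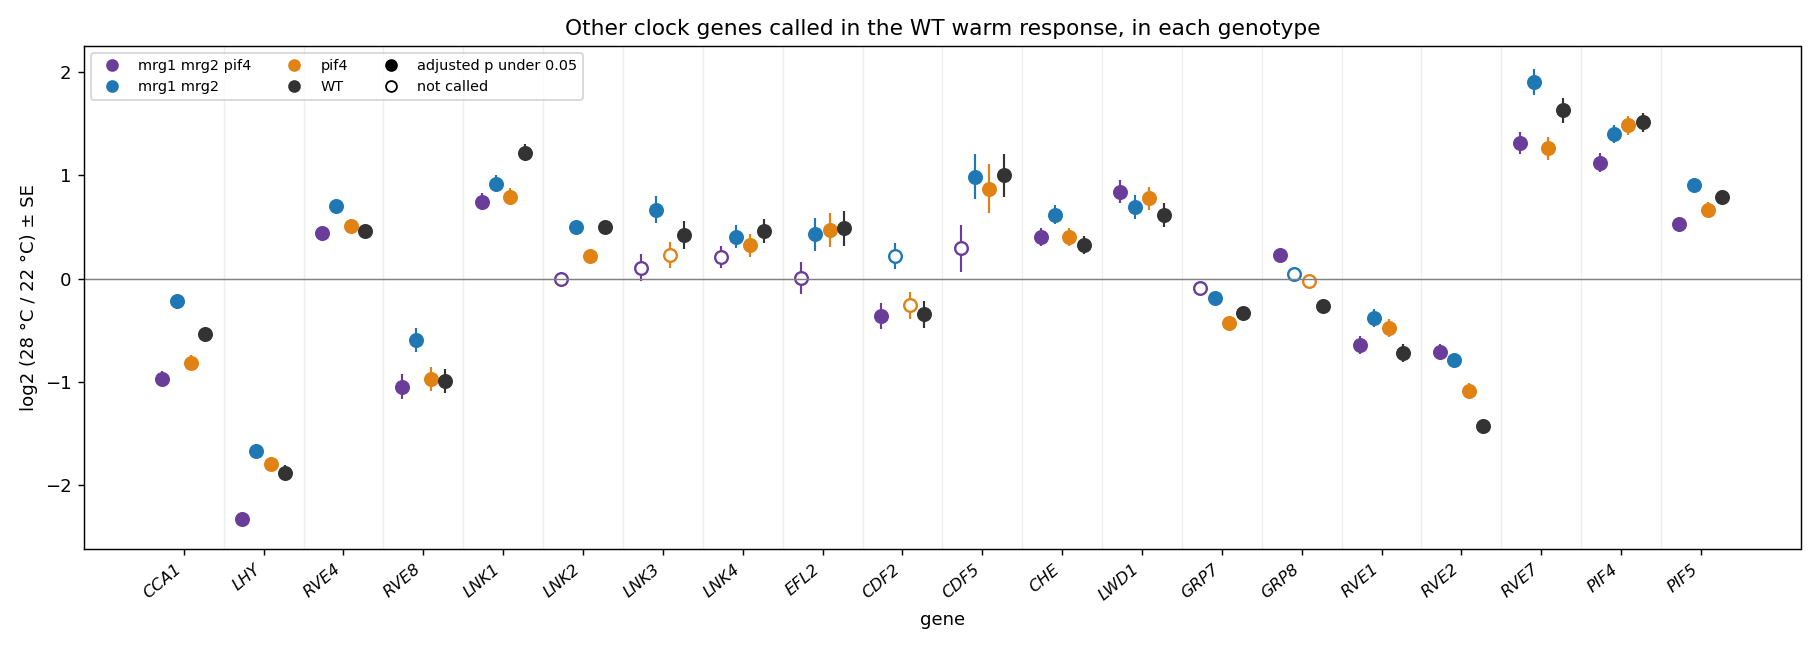
Log2 change after 3 h at 28 °C against 22 °C of the 20 other clock genes called in the WT warm response, in each genotype, with bars for the standard error and filled points for adjusted p under 0.05. CCA1, LHY, RVE8, RVE1 and RVE2 fell and RVE4, RVE7, LNK1, PIF4 and PIF5 rose in all 4 genotypes.

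The transcripts most like the members across the 8 group means were found among 15259 genes by Pearson's r of log2 CPM, as a description with no test. The points share libraries and the best of many genes is shown. LUX was most like AT5G22720 (r = 0.996 over 8 group means, 0.874 over 16 libraries) and MAX2 (AT2G42620, 0.991 and 0.972). GI was most like AT3G26520 (0.996 and 0.979), PRR7 was most like PYL5 (AT5G05440, 0.993 and 0.962), and PRR5 was most like COR413-PM1 (AT2G15970, 0.993 and 0.951). ELF4 was most like AT5G52790 (0.977 and 0.927). Among the members themselves PRR5 and BOA had the lowest r over the 8 group means (-0.801, and -0.659 over 16 libraries). PRR5 and LUX were close to this pair over the group means (-0.798) and lowest over the 16 libraries (-0.751).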

How the data were processed

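RNA from whole seedlings was sequenced in 16 libraries, 2 per genotype and temperature. Libraries were made with a stranded kit for mRNA, per the labels' protocols. The authors deposited 1 table of raw counts for 33602 genes, which they had not normalized. Cutadapt, HISAT2, SAMtools and featureCounts and the build TAIR10 are named, per the submitters' processing notes. Their versions and options, the annotation and the strand setting stand in none of the sources used here, so reads shared with a gene on the other strand, or with a related gene, cannot be traced.

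The filter filterByExpr (minimum count 10 per library and 15 in total, with the 8 groups as design) was applied in edgeR 4.0.16 (R 4.3.3). Counts were then normalized by TMM and fitted in 1 quasi-likelihood model of the 8 groups with 8 residual degrees of freedom (common biological coefficient of variation 5.74%). The 2 libraries of a group did not differ equally in all groups. Before TMM the mean chi-square per gene between them was 7.12 to 8.9 in the 28 °C groups. At 22 °C it was 4.15 in mrg1 mrg2 pif4, 3.79 in mrg1 mrg2, 1.85 in pif4 and 1.79 in WT. The model gives a gene the same spread in all groups, so p-values and standard errors can be too small at 28 °C. The part of this in the calls was not tested. The 17 comparisons used edgeR's F test of that model, two-sided, adjusted by Benjamini-Hochberg over the 20075 genes tested and called at an adjusted p under 0.05. The standard error is the size of the log2 change divided by the square root of F. The fit was tested on simulated counts with the same spread in all groups. That test cannot show how the fit handles the unequal spread of these libraries. Of all counts, 4.88% to 9.18% per library fell on the ribosomal RNA gene AT3G41768. Symbols, positions and sequences came from RefSeq, which holds 32835 of the table's IDs. The promoter of 1 member is not reported here.

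The 10 members are always named. MRG1, MRG2 and PIF4 check the labels. Of the other clock genes, those called in the WT warm response could be named, and elsewhere up to 4 by smallest p. Up to 3 genes most like a member, among those with a mean of at least 5 CPM, could be named too. The members and lists were chosen with earlier results of these data known. Alternatives were RLE normalization, library totals alone, no filter on low counts, DESeq2 1.42.0, a replicate block and leaving out each library in turn.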

Additional observations from a re-analysis of the deposited data

Results flagged for a closer look

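The difference between pif4 and WT in the warm response of ELF4 was picked out because it passed a test of the difference itself. It was 0.62 on the log2 scale (adjusted p = 0.0276 in edgeR's quasi-likelihood test). ELF4 had 19.2 and 17.4 normalized CPM in pif4 at 28 °C and 19.5 and 18.5 in pif4 at 22 °C, against 18.3 and 17.02 in WT at 28 °C and 28.7 and 27.6 in WT at 22 °C. Over the 21 alternatives its adjusted p ran from 0.0238 to 0.172, and the call was lost in 8 of them.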

How the results depend on the processing

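Of the 59 calls on members, 27 held under all 21 alternatives, 32 were lost under at least 1 and 0 reversed. Of 176 calls on other clock genes and label genes, 73 were lost under at least 1 and 0 reversed. DESeq2 lost 19 of the 59 member calls, library totals alone 9, the fit without filter 4 and RLE normalization 2. The counts of members and of all genes in the 4 warm responses stayed within 1.5 times of the reported ones. Members called against WT were 5 in pif4 at 22 °C (1 with library totals alone, 2 with DESeq2), 1 in mrg1 mrg2 at 28 °C (0 with library totals alone and 0 with DESeq2), 1 in pif4 at 28 °C (0 with library totals alone) and 3 in mrg1 mrg2 pif4 at 28 °C (1 with DESeq2). In the triple mutant DESeq2 called 2 of 4 against mrg1 mrg2 at 28 °C, 1 of 2 against pif4 at 22 °C and 0 of 2 against pif4 at 28 °C.

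All genes called with DESeq2 against the reported count were 1361 against 2178 for pif4, and 1921 against 3093 for mrg1 mrg2 pif4, each against WT at 22 °C. Against WT at 28 °C they were 1720 against 2830 for mrg1 mrg2 and 1393 against 2377 for mrg1 mrg2 pif4, and library totals alone gave 179 against 320 for pif4. For the triple mutant DESeq2 gave 1238 against 1973 (mrg1 mrg2, 22 °C), 678 against 1282 (pif4, 22 °C), 1228 against 1998 (mrg1 mrg2, 28 °C) and 1139 against 1891 (pif4, 28 °C). For the interactions library totals alone and DESeq2 gave 615 and 617 against 965 in mrg1 mrg2, and 546 and 518 against 825 in pif4.

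Over all genes the difference between replicates 1 and 2 was nearly uncorrelated between groups (-0.00980 to 0.0685). The share of ribosomal RNA counts and the TOC1 level were higher in replicate 2 in all 8 groups. PRR3 and ELF4 were each higher in replicate 2 in 1 of the 8 groups, so a shared replicate difference in single genes remains possible. With the replicate block 2 members in place of 1 passed the pif4 interaction, LUX being the added one (adjusted p = 0.047), and no member call was lost. Library totals alone gave 0 there and DESeq2 gave 0.

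Leaving out 1 library in turn, with a lone sample assumed to vary like the other groups, gave these ranges of members and of all genes called. Against WT at 22 °C they were 1 to 5 and 1234 to 2276 in pif4, and 2 to 5 and 1957 to 3157 in mrg1 mrg2 pif4. Against WT at 28 °C they were 0 to 1 and 1570 to 2895 in mrg1 mrg2, 0 to 1 and 150 to 354 in pif4, and 1 to 3 and 1402 to 2454 in mrg1 mrg2 pif4. For the triple mutant they were 2 to 4 and 1070 to 2020 against mrg1 mrg2 at 22 °C, 0 to 2 and 523 to 1351 against pif4 at 22 °C, 2 to 4 and 1060 to 2071 against mrg1 mrg2 at 28 °C, and 0 to 2 and 1090 to 1942 against pif4 at 28 °C. For the interactions all genes ran from 600 to 985 in mrg1 mrg2, and members and all genes were 0 to 2 and 456 to 872 in pif4, with 0 to 1 members in mrg1 mrg2 pif4.

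Library totals alone moved the median of all genes by 0.13 (log2) in the triple mutant against pif4 at 28 °C, where 80.9% of calls were higher against 36.0% with TMM. It also moved the share of higher calls to 38.0% from 49.3% in the WT warm response, to 28.7% from 53.4% (pif4, 22 °C) and, at 28 °C, to 58.3% from 47.5% (mrg1 mrg2), 49.2% from 73.4% (pif4) and 69.3% from 44.7% (mrg1 mrg2 pif4) against WT. In the triple mutant it moved to 60.4% from 49.7% and 63.3% from 46.9% against mrg1 mrg2 at 22 and 28 °C, and to 77.99% from 51.2% against pif4 at 22 °C. For the interactions it was 81.6% from 49.2% (mrg1 mrg2), 70.9% from 57.1% (pif4) and 67.9% from 40.6% (mrg1 mrg2 pif4).

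Of the 111 member changes not called, 18 were followed singly, and 3 of these changed sign. Of the 93 others, 36 changed sign under at least 1 alternative. For ELF3 the pif4 warm change was -0.000242 with library totals alone and between -0.0327 and 0.0832 over the fits without 1 library, the lowest without pif4 replicate 1 at 22 °C. For LUX the mrg1 mrg2 interaction ran from -0.15 to 0.0126 over these fits, the highest without mrg1 mrg2 replicate 1 at 22 °C. For PRR9 the mrg1 mrg2 pif4 interaction was 0.0431 with library totals alone and -0.32 to 0.224 over these fits, above 0 without mrg1 mrg2 pif4 replicate 1 at 22 °C (0.0488), WT replicate 2 at 28 °C (0.0998) or mrg1 mrg2 pif4 replicate 2 at 28 °C. The causes were not tested. Depth limits precision, and the standard error of the log2 warm change was 0.21 to 0.23 for PRR9 and 0.07 for PRR7. A change not called is not shown to be absent.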
